A study of Mus musculus with 10 samples.

Results

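The genes described here are 32 genes of the endothelium, the cell layer that lines vessels: 28 genes of blood endothelium and 4 of lymphatic endothelium (Lyve1, Prox1, Flt4 and Mmrn1). They were taken by symbol from the annotation of the array, where each has a single probe set, so all 32 were measured among the 19938 named genes tested. The oviducts came from female mice of the PRlacZ knock-in strain, injected at 21 to 23 days of age with 5 IU of equine chorionic gonadotropin and, 44 to 47 h later, with 5 IU of human chorionic gonadotropin (hCG), and dissected whole 8 h after hCG. PRKO animals carry the lacZ insertion in both copies of the progesterone receptor gene, which disrupts both receptor isoforms in every tissue, while the PR+/- controls carry it in a single copy and are described as fertile. Each array read a pool of oviducts from 3 animals, with 5 arrays and 15 animals per genotype. All groups were gonadotropin-treated, and no wild-type or untreated oviduct was analysed here.

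Endothelial cells are joined to each other by junction proteins such as VE-cadherin, respond to vascular endothelial growth factors (VEGFs) and angiopoietins through receptor tyrosine kinases, and are specified by transcription factors of the ETS and SOX families. Lymphatic endothelium is set apart from blood endothelium by Prox1 and depends on Flt4, the receptor for VEGFC and VEGFD. In the female tract, vessels lie in the stroma under the epithelium, in the muscle layer and under the serosa, so a whole oviduct holds them beside epithelium, smooth muscle, fibroblasts and leukocytes.

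Signals are given as log2 values, in which a difference of 1 is a doubling, and the log2 scale is inferred from the range of the deposited values. Differences are PRKO minus PR+/-, with the standard error from limma, a linear model fitted over all 19938 genes, and a gene was called at a Benjamini-Hochberg adjusted p under 0.05. The targeted gene, Pgr, was at 7.27 to 7.55 on the PR+/- arrays and at 6.31 to 6.39 on the PRKO arrays (exact permutation test, two-sided, p = 0.00794, the lowest of which 252 arrangements are capable). Markers of oviduct epithelium were present, with Pax8 at a mean of 8.50 and Epcam at 8.92. The spread of the values on an array, as their interquartile range, was 3.37 to 3.48 in PR+/- and 3.13 to 3.42 in PRKO, with PRKO replicates 5 and 3 lowest at 3.13 and 3.27. Ovarian steroidogenic transcripts were high on PR+/- replicate 4 and PRKO replicate 3. Correlations between arrays were 0.9945 to 0.9964 within PR+/-, 0.9877 to 0.9924 within PRKO and 0.9854 to 0.9928 between genotypes. PRKO arrays were thus not clearly closer to each other than to controls.

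Among the 28 blood endothelial genes, 4 fell in PRKO oviducts, none rose and 24 did not pass. Those that fell were Mcam (log2 difference -0.86 ± 0.074, SE, n = 5 against 5), Cd34 (-0.72 ± 0.085), Emcn (-0.53 ± 0.11) and Pecam1 (-0.27 ± 0.070). None of the 4 lymphatic genes was called. The 4 calls are 14.3% of the blood endothelial genes, where 3.87% of all genes tested fell and 1.09% rose. With no adjustment, 9 of the 28 were lower and 1 was higher at a p under 0.05, against 11.1% and 10.1% of all genes. Of the 28, 20 had a difference below 0, which is 71.4%, against 43.9% of all genes, and the median difference was -0.15, against 0.03 over all genes. Leaving Mcam and Cd34 aside, a choice made after their values were seen, 2 of 26 fell (7.69%) and the median was -0.14. The shares over all genes include dim genes. With the dimmest 30% of genes removed, 5 of the 27 blood genes left were lower and 1 was higher. Of the 13956 genes left, 939 were lower and 212 higher. The medians were then -0.15 for the blood genes and -0.02 for all genes. In whole tissue, fewer endothelial cells and less of a transcript per cell cannot be told apart.

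**Figure D1:**
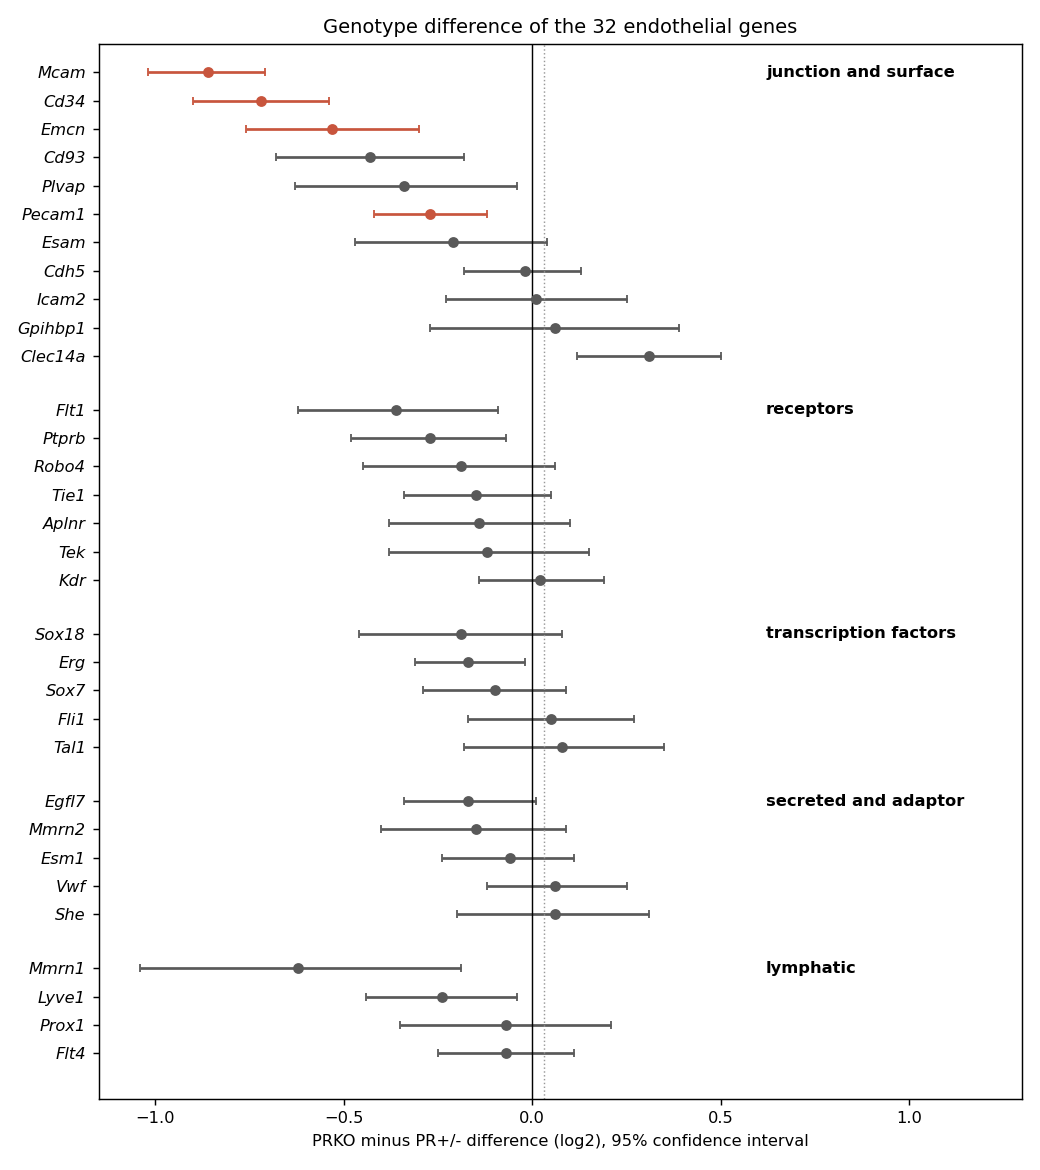
Log2 difference, PRKO minus PR+/-, of each of the 32 genes with its 95% confidence interval, by role; red marks genes called lower at an adjusted p under 0.05, grey those not called, and the dotted line is the median of all genes, 0.03. Mcam (-0.86) and Cd34 (-0.72) lie farthest left among the blood endothelial genes, Clec14a (0.31) farthest right, and the 4 lymphatic genes all lie left of 0.

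The calls lay in the role group of junction and surface proteins, where 4 of 11 fell (36.4%, against 3.87% of all genes tested). The role groups were drawn for this report. The 7 receptor genes, which also encode cell surface proteins, were grouped apart, and none was called. Mcam, an adhesion molecule of endothelium that pericytes and smooth muscle also express, had signals of 8.77, 8.92, 8.86, 8.70 and 8.94 on PR+/- arrays 1 to 5 and of 7.89, 7.98, 8.09, 7.98 and 7.93 on PRKO arrays 1 to 5. The groups were well apart, since the highest PRKO array lay 0.61 below the lowest PR+/- array. Means were 8.84 ± 0.10 and 7.97 ± 0.076 (SD, n = 5 each), which puts the PRKO level at 54.9% of the control level (limma adjusted p = 8.71e-06). Cd34, a sialomucin of endothelium that is also found on stromal fibroblasts and blood progenitors, had signals of 10.72, 10.50, 10.68, 10.60 and 10.59 in PR+/- and 9.80, 9.92, 10.10, 9.98 and 9.70 in PRKO. No PRKO value reached the PR+/- range, and the level in PRKO was 60.8% of that in controls (adjusted p = 1.44e-04). The calls of Mcam and Cd34 were kept in all 21 alternative analyses, with differences of -0.93 to -0.80 and -0.77 to -0.62.

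Emcn encodes endomucin, a mucin of the surface of capillary and venous endothelium. Its signals were 6.49, 6.40, 6.34, 6.41 and 6.63 in PR+/- and 5.84, 6.02, 6.22, 5.97 and 5.59 in PRKO. All PRKO arrays lay below all PR+/- arrays, the lowest being PRKO replicate 5 and the nearest to the controls PRKO replicate 3. PRKO held 69.3% of the control signal (adjusted p = 0.00969). The call was kept in 20 of 21 alternatives and lost, at a difference of -0.40 and an adjusted p of 0.224, when the spread of each array's values was entered as a covariate. That covariate, which differs between the genotypes, cut calls throughout. Over all genes, 264 were lower and 58 higher with it, against 771 and 217 in the main fit.

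Pecam1 encodes PECAM-1, an adhesion receptor of endothelial contacts that platelets and leukocytes carry as well. Its signals were 6.56, 6.51, 6.59, 6.46 and 6.60 in PR+/- and 6.14, 6.26, 6.35, 6.35 and 6.26 in PRKO. The ranges did not meet, although the gap between them was only 0.11. The difference was small, at 82.8% of the control signal (adjusted p = 0.0374), and the call was lost in 15 of 21 alternatives, where the adjusted p over all of them spanned 0.0203 to 0.228 and the difference -0.31 to -0.20. Leaving out any array other than PRKO replicate 3 or 4 ended the call. With the replicate number as a block the adjusted p was 0.0685.

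**Figure D2:**
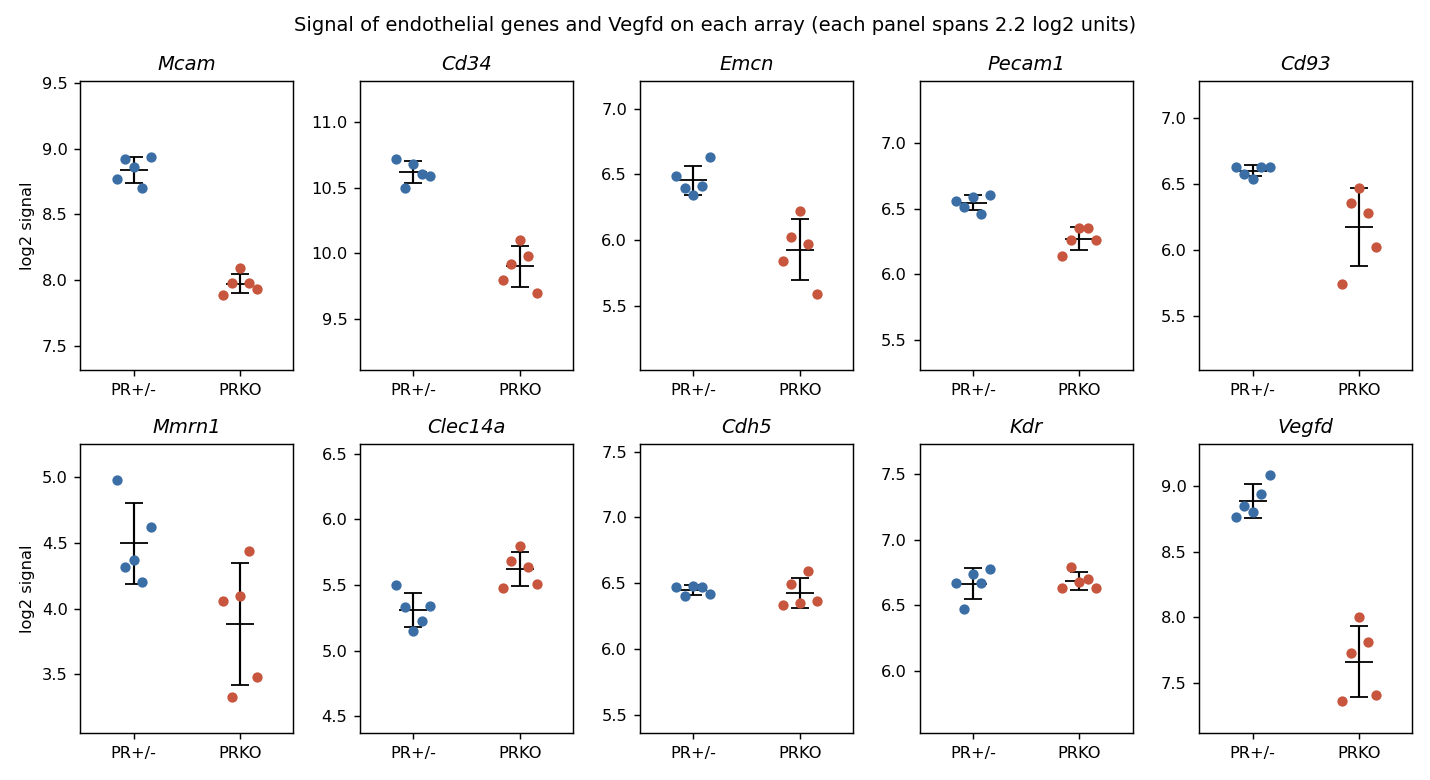
Log2 signal of 9 endothelial genes and the ligand gene Vegfd on each of the 5 PR+/- (blue) and 5 PRKO (red) arrays, with mean and SD in black; every panel spans the same height in log2 units. Mcam, Cd34, Emcn, Pecam1, Cd93 and Vegfd show PRKO arrays wholly below PR+/- arrays, while the genotypes overlap for Mmrn1, Clec14a, Cdh5 and Kdr.

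Cd93, a C-type lectin family protein that binds the matrix protein multimerin 2, stood at the edge of the threshold. Its signals were 6.63, 6.58, 6.54, 6.63 and 6.63 in PR+/- and 5.74, 6.36, 6.47, 6.28 and 6.02 in PRKO. The control arrays were nearly equal and the PRKO arrays scattered below them, lowest in replicate 1. The difference of -0.43 ± 0.12 did not pass (adjusted p = 0.0511), and it passed in 4 of 21 alternatives, among them those without PRKO replicate 2 (adjusted p = 0.0390) or 3 (adjusted p = 0.0248). Clec14a, a relative of Cd93 that binds the same protein, differed the other way. It had 5.50, 5.33, 5.15, 5.23 and 5.34 in PR+/- and 5.48, 5.68, 5.80, 5.64 and 5.51 in PRKO, and PR+/- replicate 1 lay within the PRKO range. Its difference of 0.31 ± 0.088 did not pass either (adjusted p = 0.0586), and it passed upward in 6 of 21 alternatives, among them those without PR+/- replicate 1 (adjusted p = 0.0484) or PRKO replicate 1 (adjusted p = 0.0443).

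Cdh5, which encodes VE-cadherin, the cadherin of endothelial adherens junctions, did not pass. Its signals were 6.47, 6.40, 6.48, 6.47 and 6.42 in PR+/- and 6.33, 6.49, 6.35, 6.59 and 6.36 in PRKO, so the PRKO arrays lay on both sides of the controls. The difference was -0.02 with a 95% interval of -0.18 to 0.13, so a fall of more than 0.18 on the log2 scale lies outside the interval. The other 4 genes of the surface group were Esam, a junction protein of the immunoglobulin family (-0.21 ± 0.12), Plvap, the diaphragm protein of fenestrae and caveolae (-0.34 ± 0.14), Icam2, a ligand for leukocyte integrins (0.01 ± 0.11), and Gpihbp1, the capillary anchor of lipoprotein lipase (0.06 ± 0.15). None passed (adjusted p 0.176 to 0.969), and the genotypes overlapped for each. Esam was split within PRKO, with 6.64, 6.74 and 6.69 in replicates 1 to 3, as in controls, and 6.17 and 6.12 in replicates 4 and 5.

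The sequences before the start of 3 genes that fell and of 1 whose difference was near 0 are shown so that a reader can see what the promoter table holds for them. They are the 250 bases upstream of the RefSeq start on GRCm38.p6, for Mcam (chr9:44134408-44134657, plus strand), Cd34 (chr1:194938571-194938820, plus strand) and Emcn (chr3:137340828-137341077, plus strand), all lower in PRKO, and for the VEGF receptor gene Kdr (chr5:75978456-75978705, minus strand), which had a difference of 0.02 and was not called. Capitals mark the letters of an extended ETS motif, CAGGAAG on either strand, which reads CTTCCTG where it lies on the other strand.
Mcam: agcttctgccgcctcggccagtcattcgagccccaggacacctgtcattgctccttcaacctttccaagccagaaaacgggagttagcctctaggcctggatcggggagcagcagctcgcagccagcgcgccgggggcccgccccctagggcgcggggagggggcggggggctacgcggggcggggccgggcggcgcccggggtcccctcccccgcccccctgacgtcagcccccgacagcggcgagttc
Cd34: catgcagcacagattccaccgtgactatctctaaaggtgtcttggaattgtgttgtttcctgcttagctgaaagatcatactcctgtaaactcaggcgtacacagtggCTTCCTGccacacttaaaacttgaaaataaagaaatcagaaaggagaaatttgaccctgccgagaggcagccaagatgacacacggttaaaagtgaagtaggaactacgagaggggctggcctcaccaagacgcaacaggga
Emcn: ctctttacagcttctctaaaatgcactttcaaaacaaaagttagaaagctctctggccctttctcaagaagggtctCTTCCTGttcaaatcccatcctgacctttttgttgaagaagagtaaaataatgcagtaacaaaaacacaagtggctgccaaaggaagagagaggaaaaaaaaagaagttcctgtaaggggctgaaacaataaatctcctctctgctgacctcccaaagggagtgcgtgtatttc
Kdr: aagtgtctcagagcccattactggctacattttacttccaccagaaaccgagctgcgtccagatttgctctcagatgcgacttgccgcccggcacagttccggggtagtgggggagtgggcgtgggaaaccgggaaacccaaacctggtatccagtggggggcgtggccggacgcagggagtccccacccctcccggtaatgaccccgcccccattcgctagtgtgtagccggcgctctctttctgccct
The motif was present once each in the windows of Cd34 and Emcn and absent from those of Mcam and Kdr. The table matched 17 of the 32 genes, with 23 windows, and 6 windows of 5 genes (Cd34, Egfl7, Emcn, Erg and Robo4) held CAGGAAG, against 10.8% of 32851 windows in the whole table. The SOX motif AACAAT was in 4 of the 23 windows, of 4 genes (Emcn, Erg, Mmrn1 and Tek), against 9.42% of all windows. TGTTCT, a core recognition motif of progesterone and glucocorticoid receptors, was in 3 of the 23 windows, of 3 genes (Egfl7, Tal1 and Tek), against 16.1% of all windows. No member window held a CArG box, the element of serum response factor, found in 1.47% of all windows. All motifs were searched on both strands, and none of the marked letters overlaps another motif searched. A match describes these letters in this window and is no evidence of binding.

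None of the 7 receptor genes of the blood list was called. Kdr, which encodes VEGF receptor 2, the main signalling receptor for VEGFA, had 6.67, 6.47, 6.74, 6.67 and 6.78 in PR+/- and 6.63, 6.79, 6.68, 6.70 and 6.63 in PRKO. All PRKO values lay within or just above the control range, and the difference of 0.02 had a 95% interval of -0.14 to 0.19. Flt1, which encodes VEGF receptor 1, a high-affinity receptor for VEGFA and placental growth factor, had 5.78, 5.95, 6.03, 5.64 and 5.81 in PR+/- and 5.12, 5.82, 5.61, 5.62 and 5.25 in PRKO. PRKO replicates 1 and 5 stood low and replicate 2 lay within the control range, and the difference of -0.36 ± 0.12 did not pass (adjusted p = 0.121). It passed when PRKO replicate 2 was left out (-0.44, adjusted p = 0.0462).

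The angiopoietin receptor genes Tek (Tie2) and Tie1 had differences of -0.12 ± 0.12 and -0.15 ± 0.093. Ptprb, the phosphatase VE-PTP that acts on Tie2 and VE-cadherin, had -0.27 ± 0.095 (adjusted p = 0.119). Robo4, an endothelial Roundabout receptor, had -0.19 ± 0.12, and Aplnr, the apelin receptor, -0.14 ± 0.11. The 5 genes thus had differences below 0 and overlapping groups, with adjusted p of 0.119 to 0.610. Robo4 was at 4.53 in PRKO replicate 5 and at 4.99 to 5.33 on the other 9 arrays.

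None of the 5 transcription factor genes passed. Erg, an ETS factor that maintains endothelial identity, was the sole gene among them whose groups did not overlap, at 5.21 to 5.32 in PR+/- and 4.96 to 5.17 in PRKO, with a difference of -0.17 ± 0.069 (adjusted p = 0.186). Fli1, the related ETS factor, which blood cells also express, had 0.05 ± 0.10. The SOX family genes Sox18 and Sox7 had -0.19 ± 0.13 and -0.10 ± 0.089, and Tal1, a factor of early blood and endothelial lineages, 0.08 ± 0.13. For these 4 the genotypes overlapped. In all, 6 of the 28 blood genes (Mcam, Cd34, Emcn, Pecam1, Cd93 and Erg) had every PRKO value below every PR+/- value and 0 had every value above, against 5.06% and 2.15% of all genes.

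None of the 5 secreted and adaptor genes passed. Vwf, which encodes von Willebrand factor, the clotting protein stored in endothelium and platelets, was at 6.07 to 6.33 in PR+/- and 6.12 to 6.50 in PRKO, with a difference of 0.06 (95% interval -0.12 to 0.25). Egfl7, a secreted vascular factor, had -0.17 ± 0.082, and Mmrn2, the endothelial matrix protein multimerin 2 that Cd93 and Clec14a bind, -0.15 ± 0.11. Esm1, the secreted proteoglycan endocan, had -0.06 ± 0.081 at a mean signal of 3.94, and She, an SH2 adaptor, 0.06 ± 0.12. All 5 overlapped between genotypes (adjusted p 0.260 to 0.817).

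Of the lymphatic genes, Mmrn1 had the largest difference. It encodes multimerin 1, found in lymphatic endothelium, platelets and megakaryocytes, and its signals were 4.98, 4.32, 4.37, 4.20 and 4.62 in PR+/- and 4.06, 3.33, 4.10, 4.44 and 3.48 in PRKO. PRKO replicates 2 and 5 were far below the rest, whereas replicate 4 lay inside the control range. The difference of -0.62 ± 0.20 did not pass (adjusted p = 0.0932), and without PRKO replicate 4 it was -0.75 and did (adjusted p = 0.0341). Lyve1, the hyaluronan receptor of lymphatic endothelium that tissue macrophages also carry, had 7.04, 7.00, 7.18, 7.22 and 7.15 in PR+/- and 7.11, 6.78, 7.04, 6.72 and 6.73 in PRKO. Replicates 1 and 3 of PRKO lay within the control range, and the difference of -0.24 ± 0.092 did not pass (adjusted p = 0.149).

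Prox1, the homeobox factor that specifies lymphatic identity, was dim, at 3.66 to 4.33 in PR+/- and 3.41 to 3.91 in PRKO. Its difference was -0.07 with a 95% interval of -0.35 to 0.21. Flt4, which encodes VEGF receptor 3, was at 4.62 to 4.75 and 4.35 to 4.78, with a difference of -0.07 and an interval of -0.25 to 0.11. The median of the 4 was -0.16. Mmrn1, Prox1 and Flt4 had mean signals of 4.19, 3.81 and 4.66, in the lower part of the 19938 genes (percentiles 28, 23 and 35), where an array understates a fold change.

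**Figure D3:**
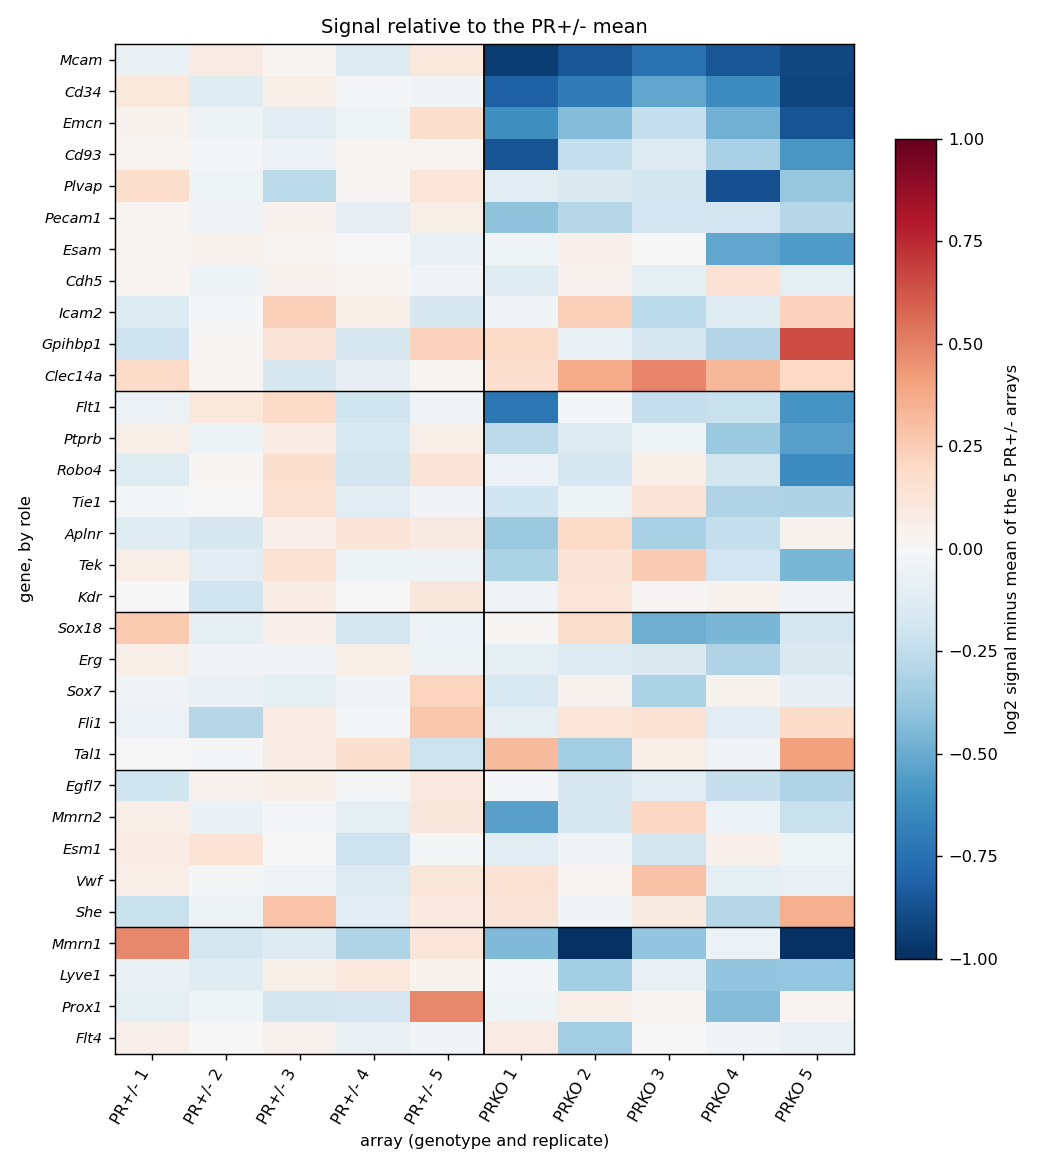
Log2 signal of each of the 32 genes on each array, minus that gene's mean over the 5 PR+/- arrays; rows are grouped by role and the colour scale ends at 1 above and below, so a larger deviation has the end colour. The rows of Mcam, Cd34 and Emcn are blue on all 5 PRKO arrays, while most other rows are blue on some PRKO arrays and pale or red on others.

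The PRKO arrays were not alike in their endothelial genes. Among the 28 blood genes, PRKO replicate 5 had the lowest value of the genotype in 9, replicate 1 in 8, replicate 4 in 6, replicate 3 in 4 and replicate 2 in 1. PRKO replicate 3 had the highest value in 12. In PR+/-, replicate 4 was lowest in 10 and replicate 5 highest in 11. The same counts were not made over all genes, so they do not show a trait of endothelial genes. The median SD of the 28 genes was 0.120 in PR+/- and 0.209 in PRKO. Of them, 78.6% had the larger SD in PRKO, near the 74.7% of all genes. Averaged over the 28 genes and set to the PR+/- mean, PRKO replicates 1 to 5 lay at -0.21, -0.09, -0.09, -0.24 and -0.22, and the PR+/- arrays between -0.05 and 0.05. Without Mcam and Cd34 the PRKO arrays lay at -0.16, -0.03, -0.05, -0.20 and -0.17, and the genotypes then overlapped. With array spread as a covariate, 2 of the 28 genes (Mcam and Cd34) were called, and without PRKO replicates 1 and 5, 3 were (Mcam, Cd34 and Emcn).

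Markers of other cells that share some of these transcripts moved too, where 3.87% of all genes tested fell and 1.09% rose. All 8 smooth muscle genes listed fell, with a median difference of -0.66, among them Des, the intermediate filament desmin (-1.51), Actg2, a visceral actin (-1.20), and Cnn1, the actin-binding calponin (-0.92). Of 10 pericyte genes, 3 fell and 1 rose. Kcnj8 and Abcc9, which together form the potassium channel of pericytes and vascular smooth muscle, fell by 1.44 ± 0.099 and 0.87 ± 0.12 on the log2 scale, Rgs5, a regulator of G protein signalling in pericytes, by 0.48 ± 0.11, and the peptidase gene Anpep rose by 0.49 ± 0.12. Rgs5 was not called without PR+/- replicate 1 (adjusted p = 0.0525) or with array spread as a covariate (adjusted p = 0.0556), and Anpep, which kept its call in 13 of 21 alternatives, was not called with the replicate number as a block (adjusted p = 0.0597). Of the pericyte genes that did not pass, Cspg4, the proteoglycan NG2, had 0.01, Notch3 0.16 and Pdgfrb -0.32 (adjusted p = 0.0841). Vtn had -0.33 (adjusted p = 0.0532), Higd1b 0.00 and Ndufa4l2 0.14. Only 5 of the 10 pericyte genes had a difference below 0, and those of Kcnj8 and Abcc9 were the largest, so the list mean leans on these genes. The mean level of the pericyte list was -0.33 to -0.18 on PRKO arrays and -0.09 to 0.12 on PR+/- arrays, and that of the smooth muscle list -0.95 to -0.72 and -0.11 to 0.04. The part of these cells in the fall of Mcam was not tested.

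Of 7 fibroblast genes measured, 1 fell (14.3%, where 3.87% of all genes fell and 1.09% rose). It was Pdgfra, a growth factor receptor of stromal cells (-0.39 ± 0.097, adjusted p = 0.0317), whose call was lost in 11 of 21 alternatives, with an adjusted p of up to 0.104. The list's mean level was -0.22 to 0.02 on PRKO arrays and -0.13 to 0.12 on PR+/- arrays. The part of these cells in the fall of Cd34 was not tested. Of 12 leukocyte genes, none fell and 1 rose, F13a1, the factor XIII subunit of macrophages (0.39 ± 0.11, adjusted p = 0.0498), which kept its call in 10 of 21 alternatives. With no adjustment, 4 of the 12 were higher and 0 lower at a p under 0.05, against 10.1% and 11.1% of all genes. Besides F13a1 these were Cd163, a scavenger receptor of macrophages (0.32 ± 0.13, adjusted p = 0.169), Itgam, an integrin chain of myeloid cells (0.31 ± 0.11, adjusted p = 0.116), and Lyz2, a lysozyme (0.23 ± 0.095, adjusted p = 0.194). The other 8 lay between -0.07 and 0.11, with Csf1r and Mrc1, macrophage receptors, at -0.01 and 0.08, and Ptprc, the pan-leukocyte phosphatase CD45, at 0.06. None of 5 platelet genes was called, and Pf4, platelet factor 4, had -0.10 ± 0.074. Of the 8 erythroid genes listed, 3 were measured and 0 were called, and the globin genes were read by probe sets with several symbols and were not used. Of 5 mesothelial genes, which mark the serosal cover of the oviduct, 2 fell (40.0%, against 3.87% of all genes) and 3 did not pass. Those that fell were Msln (-0.45 ± 0.10) and Krt19 (-0.40 ± 0.11), a keratin that epithelium also makes. The call of Krt19 was lost in 12 of 21 alternatives and that of Msln in 3. None of 6 oviduct epithelial genes was called.

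**Figure D4:**
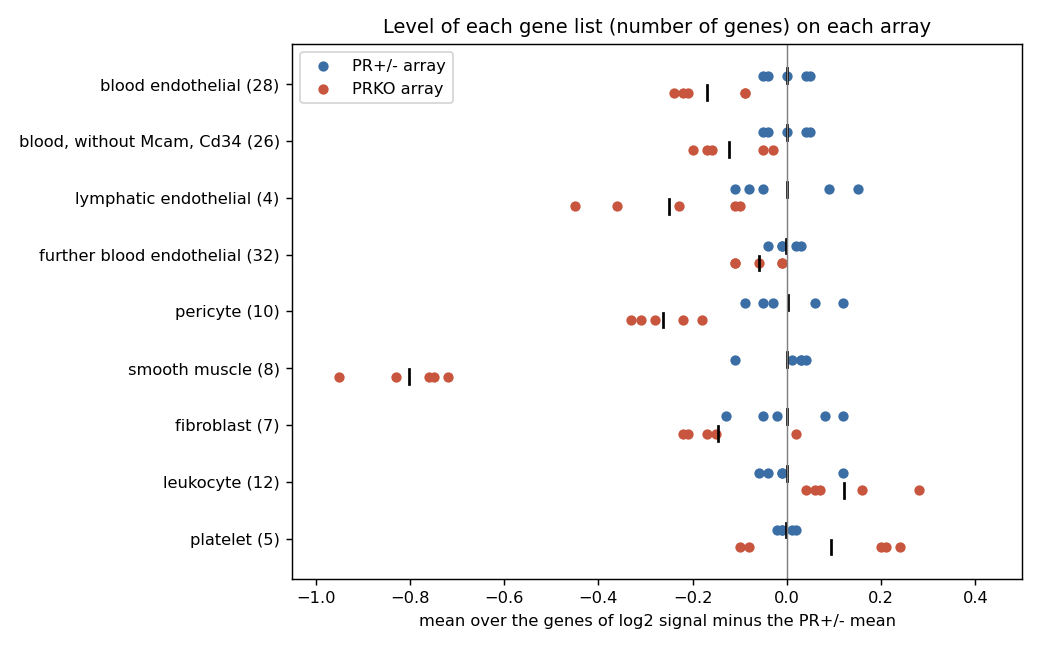
Mean level of each gene list on each array, as log2 signal minus the PR+/- mean of each gene; points are arrays (blue PR+/-, red PRKO) and black bars are genotype means. The mean of the 28 blood endothelial genes lies between -0.24 and -0.09 on PRKO arrays, nearer to 0 on average than the pericyte (-0.33 to -0.18) and smooth muscle (-0.95 to -0.72) lists. The mean of the leukocyte list lies above 0 on all 5 PRKO arrays (0.04 to 0.28), in a range that overlaps that of the PR+/- arrays (-0.06 to 0.12).

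A further 33 blood endothelial genes were listed as context, and 32 were measured. Of these 2 fell, which is 6.25%, against 3.87% of all genes, none rose and 30 did not pass. The median difference was -0.07, against 0.03 over all genes. With the dimmest 30% of genes removed, 3 of the 29 left were lower, beside 939 of 13956 genes. In the main fit, the 2 genes below were called. Those that fell were the adhesion G protein-coupled receptor genes Adgrl4 (-0.46 ± 0.097, adjusted p = 0.0124) and Adgrf5 (-0.41 ± 0.089, adjusted p = 0.0157). Adgrl4 was at 6.01 to 6.34 in PR+/- and 5.45 to 5.89 in PRKO, and Adgrf5 at 8.12 to 8.35 and 7.62 to 7.99, so neither overlapped. Adgrf5, which epithelia also express, lost its call without PR+/- replicate 1 (adjusted p = 0.0517) and without PR+/- replicate 4 and PRKO replicate 3 together (adjusted p = 0.0716). Neither gene was called without PRKO replicates 1 and 5 (adjusted p = 0.0580 and 0.0678), where Afap1l1, an actin filament adaptor, was the sole further blood gene called (-0.40, adjusted p = 0.0101), and neither was called with array spread as a covariate. Cldn5, the tight junction claudin of endothelium, had -0.16 ± 0.082, Eng, a coreceptor for transforming growth factor beta, -0.20 ± 0.10, and Nos3, the endothelial nitric oxide synthase, 0.13 ± 0.098. Sele had 0.33 ± 0.10 (adjusted p = 0.0810) and was called higher with median centring (adjusted p = 0.0456) and without PR+/- replicate 3 (adjusted p = 0.0412). Ecscr had -0.28 ± 0.081 (adjusted p = 0.0667) and was called lower without the dimmest 30% of genes (adjusted p = 0.0421) and without PRKO replicate 3 (adjusted p = 0.0414). Genes known from arterial endothelium, grouped after their values were seen, lay on both sides of 0, with 0.16 for Gja4, 0.12 for Gja5, 0.10 for Dll4, 0.16 for Hey1, 0.16 for Efnb2, -0.15 for Sox17 and -0.06 for Bmx, and none passed (adjusted p 0.228 to 0.711). Ephb4, a receptor of venous endothelium, had 0.02.

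Of 12 further genes used to mark lymphatic endothelium, 10 were measured and 2 fell (20.0%, against 3.87% of all genes). They were Itga9, an integrin chain (-0.57 ± 0.10, adjusted p = 0.00479), and Fxyd6, a regulator of the sodium pump (-0.55 ± 0.10, adjusted p = 0.00499). Neither was called with array spread as a covariate (adjusted p = 0.160 and 0.0823), and both genes are expressed by other cells as well, Itga9 by smooth muscle among them. Pdpn, the mucin podoplanin, which mesothelium and fibroblasts also carry, had -0.10, Reln, the matrix protein reelin, 0.21, and Foxc2, a factor of lymphatic valves, -0.18 (adjusted p 0.171 to 0.633). Maf differed upward, at 0.28 ± 0.090, and did not pass (adjusted p = 0.0992). It was called higher with quantile normalization (0.35, adjusted p = 0.0347) and with cyclic loess (0.33, adjusted p = 0.0430). Nts had 0.35 ± 0.26 (adjusted p = 0.463), Ackr4 0.03, Tbx1 -0.04 and Ackr2 -0.12. The median of the 10 was -0.07.

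Among 14 genes, the ligands and coreceptors of these receptors and 2 genes of VEGFC processing (Ccbe1 and Adamts3), 4 fell, none rose and 10 did not pass. The 4 are 28.6% of the list, where 3.87% of all genes tested fell and 1.09% rose. Vegfd, which encodes the ligand VEGFD of Flt4, had 8.76, 8.85, 8.80, 8.94 and 9.08 in PR+/- and 7.36, 7.73, 8.00, 7.81 and 7.41 in PRKO. Its groups were far apart, with the highest PRKO array 0.77 below the lowest control, and the difference of -1.23 ± 0.12 left 42.7% of the control signal (adjusted p = 2.03e-05). The call held in all 21 alternatives. Pgf, placental growth factor, a ligand of Flt1, fell by 0.38 ± 0.078 (5.79 to 6.06 in PR+/-, 5.44 to 5.65 in PRKO, adjusted p = 0.0115).

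The neuropilins Nrp1 and Nrp2, coreceptors for VEGFs and semaphorins that stromal and muscle cells also express, fell by 0.37 ± 0.086 and 0.44 ± 0.082 (adjusted p = 0.0244 and 0.00606). Neither overlapped between genotypes, at 7.66 to 7.93 against 7.17 to 7.55 for Nrp1 and 6.37 to 6.59 against 5.82 to 6.18 for Nrp2. The call of Nrp1 was lost in 8 of 21 alternatives, among them those without PR+/- replicate 1, 2 or 4 (adjusted p 0.0572 to 0.0764). With array spread as a covariate, Vegfd alone of the 14 was called, and Nrp2, Pgf and Nrp1 had adjusted p of 0.0550, 0.106 and 0.181. Vegfa, the main growth factor of blood endothelium, had -0.16 ± 0.085 (adjusted p = 0.298), Vegfb -0.13 ± 0.087 and Vegfc, the other ligand of Flt4, -0.10 ± 0.077. Ccbe1, a cofactor of VEGFC processing, had 0.13 ± 0.11, and Adamts3, of the same processing, -0.12 ± 0.115 (adjusted p = 0.583). Adamts3 had 16 probe sets with 1 symbol, of which that with the highest mean was used.

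Among angiopoietins, Angpt2, the context-dependent antagonist of Tie2 made by endothelium, had 4.52, 4.48, 4.79, 4.77 and 4.60 in PR+/- and 5.24, 5.15, 4.65, 4.94 and 5.36 in PRKO. Only PRKO replicate 3 lay within the control range, and the difference of 0.44 ± 0.12 did not pass (adjusted p = 0.0570). Without PRKO replicate 3, the array nearest the controls, it was 0.54 and passed (adjusted p = 0.00852). It passed in 5 of 21 alternatives, and the adjusted p over all of them reached 0.460. Angpt1, the Tie2 agonist, had 0.00 (95% interval -0.27 to 0.28) and Angpt4 -0.08. Apln and Apela, the ligands of Aplnr, both had -0.03 (adjusted p 0.872 and 0.874).

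**Figure D5:**
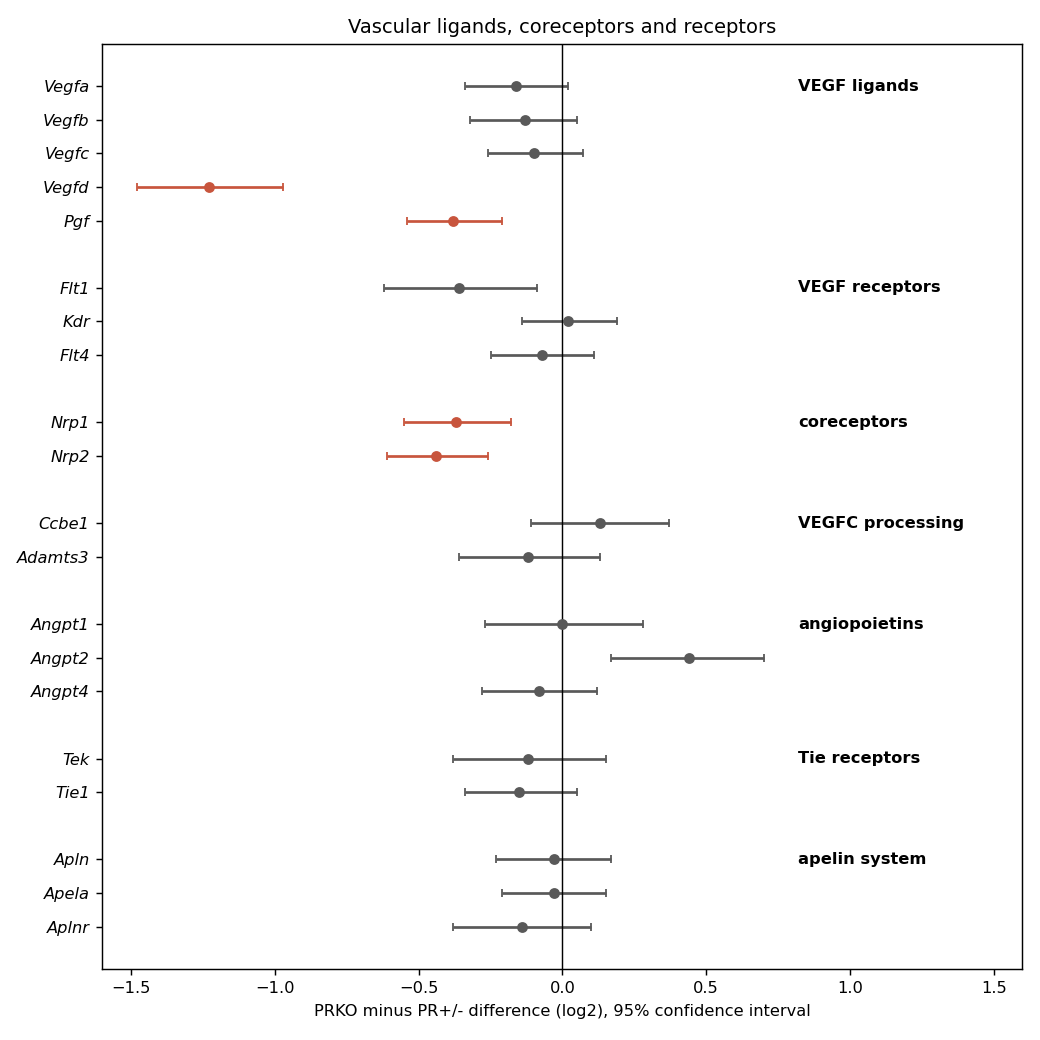
Log2 difference, PRKO minus PR+/-, with its 95% confidence interval for VEGF, angiopoietin and apelin ligands, coreceptors, VEGFC processing genes and the receptors. Red marks genes called lower. Vegfd lies at -1.23 and Pgf, Nrp1 and Nrp2 between -0.44 and -0.37, while the interval of Kdr, Flt4, Tek, Tie1 and Aplnr includes 0. The interval of the receptor gene Flt1 lies below 0 (-0.62 to -0.09) and that of Angpt2 above 0 (0.17 to 0.70), though neither gene was called.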

How the data were processed

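Total RNA from pooled oviducts was labelled with biotin and hybridised to Affymetrix whole-transcript arrays, per the labels' protocols. The authors processed the arrays in Partek, per the submitters' processing notes; no version, background correction, normalization or probe summary is given in the sources used here. The deposited table holds 35557 probe sets, with values of 1.09 to 13.6 that the range marks as log2, and array medians of 5.20 to 5.28, so nothing was normalized again. Of these rows, 21789 had 1 gene symbol in the platform annotation (1621 had several and 12147 none), and the probe set with the highest mean stood for each of 19938 genes. No detection values came with the table, so no dim signal was removed.

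The test of PRKO against PR+/- was limma's (version 3.58.1, under R 4.3.3, with 8 residual and 6.08 prior degrees of freedom). Its p-values rest on the spread between pools, and precision is limited by the number of arrays. The procedure was tested on simulated data. Promoter sequences are from RefSeq (GRCm38.p6). The members and lists were chosen with earlier results of these data known. All 32 members were named; of other lists, called genes by p, at most 6 each, and any others named were picked after their values were seen. The labels do not say that a replicate number is shared between genotypes, so the main fit has no block. Deviations from the genotype means correlated at -0.013 to 0.159 between same-numbered arrays. They were not set beside those of different-numbered arrays, so they do not settle whether the numbers are paired.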

Additional observations from a re-analysis of the deposited data

Results flagged for a closer look

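Among 64 groups of 5 arrays (32 genes, 2 genotypes), 4 held an array far from the others, with a gap to its nearest neighbour above 0.71 of the group's range. Chance alone flags about 1 in 20 groups. Prox1 was at 4.33 in PR+/- replicate 5 against 3.66 to 3.80 on the other PR+/- arrays, while PRKO replicate 4 had 3.41 and the remaining PRKO arrays 3.80 to 3.91. Sox7 was at 7.38 in PR+/- replicate 5 against 7.06 to 7.12, and Erg at 4.96 in PRKO replicate 4 against 5.12 to 5.17.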

How the results depend on the processing

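The results were recomputed under 21 alternatives (other normalizations, a dim filter, mean of probe sets, other moderation, array weights, replicate block, array spread as covariate, and arrays left out). Over the 32 genes, 611 of 669 recomputed values kept their side of the threshold and did not take the opposite sign. A value that rounds to 0.00 was counted as no change of sign. Of the others, 16 lost a call (15 of Pecam1, 1 of Emcn), 12 gained one (6 of Clec14a, 4 of Cd93, 1 of Flt1 and 1 of Mmrn1) and 30 changed sign.

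With array spread as a covariate, 2 of 28 blood endothelial genes were called lower, 0 further blood and 0 further lymphatic genes, and 1 ligand, Vegfd. Over all 19938 genes, that setting called 264 lower and 58 higher, against 771 and 217 in the main fit. Clec14a made 1 gene called higher with median centring, without the dimmest 30% of genes, with array weights and without PRKO replicates 1 and 5, where 1 further blood gene, Afap1l1, was called lower; 1, Adgrl4, was without PR+/- replicate 4 and PRKO replicate 3. With single arrays left out, the blood genes called higher ranged from 0 to 1, lymphatic genes called lower from 0 to 1 and further blood genes called lower from 1 to 3. Esm1, Prox1 and Mmrn1 were removed by the dim filter. With the replicate block, Pecam1 had -0.27 and was not called (adjusted p = 0.0685), and no other of the 32 genes changed its call.

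Signs turned only for genes that were called in no analysis. With array spread as a covariate, Cdh5 had 0.06, Tek 0.06, Esm1 0.01, Icam2 -0.02, Fli1 -0.09, Tal1 -0.18, She -0.19 and Gpihbp1 -0.31. Without PRKO replicates 1 and 5, Cdh5 had 0.03, Tek 0.06, Icam2 -0.05, She -0.07, Tal1 -0.10 and Gpihbp1 -0.18. Cdh5 had 0.05, 0.01 and 0.03 with quantile normalization, median centring and cyclic loess. With array weights, Icam2 had -0.03 and Gpihbp1 -0.01. With single arrays left out, Icam2 ranged from -0.05 to 0.08, Gpihbp1 from -0.08 to 0.15, Kdr from -0.03 to 0.05, Fli1 from -0.02 to 0.12, She from -0.02 to 0.14 and Prox1 from -0.12 to 0.05, while Vwf, with 0.00 to 0.10, turned only without PR+/- replicate 4 and PRKO replicate 3 together (-0.03), where Icam2 had 0.10 and Prox1 -0.14. The causes were not tested. The median of the 28 blood genes stayed between -0.17 and -0.11.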
